A study of Rattus norvegicus with 49 samples.

Results

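The integrated stress response was described here in rat liver through 8 genes, the transcription factors Atf4, Atf5, Ddit3 and Cebpb and the responsive genes Nupr1, Trib3, Asns and Sesn2. They were chosen by symbol, 8 of the 14217 genes that could be tested, with earlier results of these data known. Measured values entered the rule only in the choice of the probe set. Each gene was read from the probe set (a set of short array probes for 1 transcript) annotated with that symbol alone and with the highest mean over the 49 arrays. All animals were male Sprague-Dawley rats of 8 to 10 weeks at the start, with no transgene or drug, and 1 array was run per rat. Group 2 ate ad libitum and was fasted overnight before necropsy. Group 3 received 15% less food, group 4 received 30% less and group 5 received 60% less, and all of them were fasted overnight as well. Group 1 ate ad libitum and was not fasted. Livers were taken after 4 or 14 days. Each diet had 5 arrays at either time, except the unfasted diet at day 14, which had 4. The tissue is labelled liver, and the study's methods speak of hepatocyte RNA. The series' design text states that every animal was fasted, whereas the titles of the group 1 samples state no fasting, and the titles were followed.

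In the integrated stress response, kinases that sense amino acid shortage, unfolded proteins in the endoplasmic reticulum, haem shortage or double-stranded RNA phosphorylate the translation factor eIF2. General translation then drops, while the mRNAs of Atf4 and Atf5, which carry short upstream reading frames, are translated better. ATF4 protein turns on genes for amino acid supply and stress defence, often paired with a C/EBP factor, so the mRNA levels measured here are not a measure of ATF4 protein. In liver, these genes are of interest under diet restriction because food supply sets the amino acids that reach the organ.

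The site at which ATF4 and C/EBP factors bind as a pair, the composite element TGATGNAA, was searched on both strands of RefSeq promoter windows of build GRCr8. The windows ran from 250 bases before to 50 bases after the annotated start, and all 8 genes had one. The element was found in 2 of the 8 windows, those of Nupr1 and Trib3, and in 3.98% of 33469 windows of all genes. The cAMP response element TGACGTCA was in none of the 8 and in 1.83% of all, and the C/EBP-type site TTGCNNAA was in Atf5 and Sesn2 and in 10.6% of all. No match overlapped a match of another motif. The start sites used for Atf5 and Asns lay 2816 and 555 bases inside the annotated gene. The 200 bases before the start are shown for both genes with the element, whose patterns differed (Nupr1 rose with food restriction, Trib3 with the overnight fast), and for Ddit3, which rose with Nupr1 at day 14 and held no match. Capitals mark the element, which lies on the opposite strand in both genes and so appears as its reverse complement. Nupr1 is shown at chr1:190645902-190646101 (minus strand), Trib3 at chr3:161275534-161275733 (minus strand) and Ddit3 at chr7:65001495-65001694 (plus strand). A match describes the letters only.
Nupr1: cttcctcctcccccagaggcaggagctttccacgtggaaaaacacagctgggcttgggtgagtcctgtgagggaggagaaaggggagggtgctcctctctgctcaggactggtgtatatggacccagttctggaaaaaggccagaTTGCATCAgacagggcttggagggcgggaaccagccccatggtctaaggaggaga
Trib3: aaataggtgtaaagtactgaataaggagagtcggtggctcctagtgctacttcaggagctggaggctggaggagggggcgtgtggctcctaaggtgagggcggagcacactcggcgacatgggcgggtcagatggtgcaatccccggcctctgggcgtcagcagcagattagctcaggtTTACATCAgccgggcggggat
Ddit3: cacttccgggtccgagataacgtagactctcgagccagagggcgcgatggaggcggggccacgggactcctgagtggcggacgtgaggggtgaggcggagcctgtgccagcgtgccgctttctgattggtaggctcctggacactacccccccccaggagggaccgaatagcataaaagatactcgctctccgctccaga

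Intensities ran from 8 to 33095 over the 49 arrays, all arrays were distinct, and their median log2 intensity lay between 6.34 and 6.43. Arrays of the same group and day correlated at 0.9894 to 0.995. Each marker's mean over all arrays was set against a dim floor. The 9 measured hepatocyte markers were above it, and their mean log2 intensity in single rats lay between 14.01 and 14.25. That mean does not show changes of single markers, and 1 of the 9, Tat, was called higher in group 5 than in group 2 at day 14. Of the 5 measured neutrophil markers, 4 were below the dim floor. That floor, a log2 intensity of 5.307, is the 20th percentile of the mean log2 intensities of the 14217 genes tested, each with 1 probe set. In whole liver, fewer cells of a type and less RNA per cell cannot be told apart. Markers of other cells were also counted with 60% less food at day 14, where 8.88% of all genes were called higher and 10.9% lower. Of 5 erythroid markers 3 fell and none rose, and their summed intensity was 1974 to 4909 in group 5, against 9359 to 13321 in group 2. Of 12 lymphocyte markers 4 fell and none rose (summed intensity 804 to 916 in group 5, against 901 to 1060 in group 2), with Cd3d, Cd8a and Klrd1 under the dim floor. Of 11 stellate cell and fibroblast markers 2 fell and none rose (2546 to 4444, against 3515 to 5856), of 9 macrophage markers 1 fell, of 5 neutrophil markers 1 fell, and of 7 endothelial and 5 cholangiocyte markers 1 each rose. In group 4 at day 14, 2 erythroid markers fell (4619 to 12439, against 9359 to 13321 in group 2), where 6.24% of all genes were called lower. With the overnight fast, 4 stellate cell and fibroblast markers fell and none rose at either day, against 9.76% of all genes lower at day 4 and 7.26% at day 14. The part of these markers in the results was not tested.

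The first question was how restricted food changed the stress response genes in fasted rats, and group 2 was the common control of all 6 comparisons. Genes were called at an adjusted p under 0.1. After 14 days of 60% less food, 3 of the 8 genes were higher (Nupr1, Cebpb, Ddit3) and 2 were lower (Atf5, Asns), while 8.88% of all 14217 genes were called higher and 10.9% lower. At 30% less food and day 14 the count was 3 higher (Nupr1, Cebpb, Ddit3) and 1 lower (Atf5), against 6.52% and 6.24% of all genes. At 15% less food and day 14 it was 2 higher (Nupr1, Ddit3) and 2 lower (Atf5, Atf4), against 3.4% and 3.14% of all genes. The genes thus moved in both directions, and the median log2 change of the 8 was 0.30, 0.14 and -0.06 in groups 5, 4 and 3, against a median of all genes between 0.0033 and 0.0038.

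Fewer of them were called after 4 days, when the share of all genes called was lower too. Group 5 had 1 gene higher (Nupr1) and 1 lower (Atf5), against 3.56% and 3.58% of all genes. Group 4 had none higher and 1 lower (Atf5), against 3.05% and 2.38%. In group 3, limma called none of the 8, with 1 (Atf5) at an unadjusted p under 0.05, and it called 0.113% of all genes higher and 0.141% lower.

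**Figure D1:**
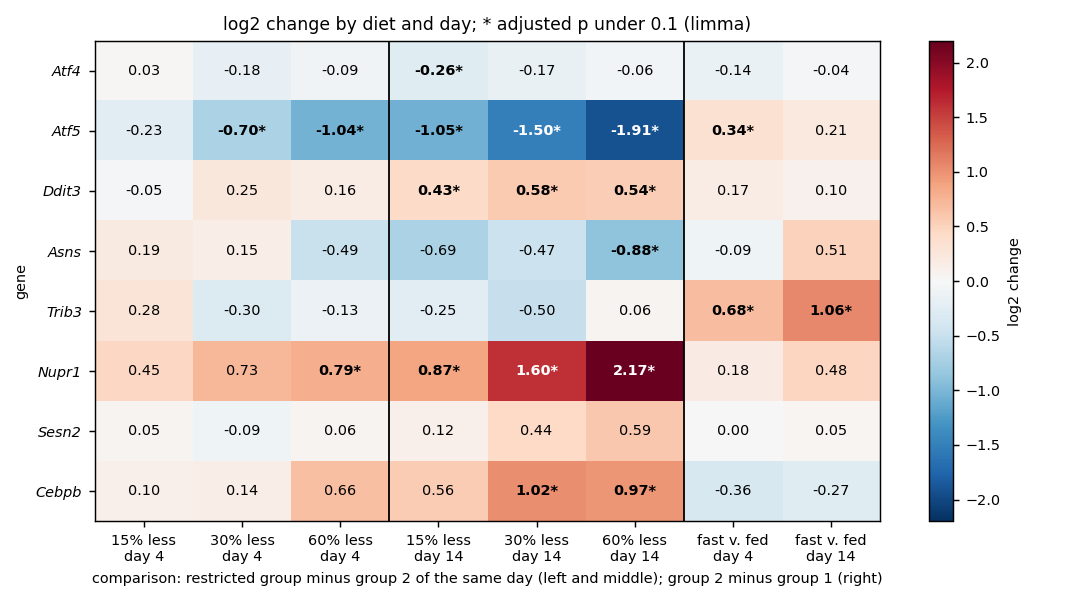
Log2 change of each gene (rows) in each comparison (columns), as restricted group minus group 2 of the same day and as group 2 minus group 1. Colour and printed value give the log2 change, and an asterisk marks an adjusted p under 0.1. Atf5 runs down to -1.91 and Nupr1 up to 2.17 with 60% less food at day 14, and Trib3 is called only in the 2 comparisons of fasted with unfasted rats.

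Atf4 is the central factor of the response. Its 10 group means spanned 0.42 on the log2 scale, the narrowest span of the 8 genes. Divided by the mean SD within groups, the span was 2.65 for Atf4 and was lowest for Sesn2 (1.94). At day 14 the log2 intensity of Atf4 was 11.22, 11.38, 11.49, 11.20 and 11.25 in group 2, and 11.13, 11.03, 11.09, 11.02 and 10.96 in group 3. It was 11.00, 11.05, 11.19, 11.18 and 11.28 in group 4, and 11.35, 11.21, 11.00, 11.25 and 11.46 in group 5. The group 3 rats lay below all group 2 rats, whereas groups 4 and 5 overlapped with group 2. Group 3 was lower than group 2 by a log2 change of -0.26 (SE 0.07, adjusted p = 0.0582), a call that was lost in a fit of all groups together (adjusted p = 0.14). It was also lost without rat 2, 4 or 5 of group 3 or rat 2 or 3 of group 2 (adjusted p of 0.101 to 0.14). In group 5 the change was -0.06 at day 14 (95% interval -0.26 to 0.15) and -0.09 at day 4 (95% interval -0.34 to 0.17).

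Atf5, a liver-rich factor related to ATF4 that is also linked to the mitochondrial stress response, showed a stepwise decrease. Its log2 intensity at day 14 was 12.37, 12.57, 13.07, 12.55 and 12.76 in group 2, and 11.61, 11.57, 11.89, 11.36 and 11.66 in group 3. It was 10.53, 11.19, 11.42, 11.23 and 11.45 in group 4, and 10.96, 10.52, 10.97, 10.69 and 10.61 in group 5. No rat of groups 3, 4 or 5 reached the lowest group 2 rat. Group 5 was 3.77-fold lower than group 2 (log2 change -1.91, SE 0.13, adjusted p = 4.27e-06), group 4 was 2.83-fold lower (-1.50, SE 0.17, adjusted p = 0.00035) and group 3 was 2.07-fold lower (-1.05, SE 0.13, adjusted p = 0.000683). Each of these calls held when any 1 rat was left out. At day 4 the values were 12.81, 12.77, 12.71, 12.61 and 12.69 in group 2, 12.19, 12.04, 11.94, 11.78 and 12.13 in group 4, and 11.98, 11.36, 12.22, 11.54 and 11.27 in group 5. Both restricted groups lay wholly below group 2 there, 1.63-fold lower in group 4 (-0.70, adjusted p = 0.00297) and 2.06-fold lower in group 5 (-1.04, adjusted p = 0.0049). Group 3 overlapped with group 2 at day 4 (-0.23, 95% interval -0.45 to -0.02, adjusted p = 0.431).

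Ddit3, which encodes CHOP, a factor induced by ATF4 and linked to cell death under lasting stress, rose at day 14 in every restricted group. Its log2 intensity was 7.47, 7.32, 7.41, 7.48 and 7.34 in group 2, and 8.19, 7.83, 7.83, 7.46 and 7.85 in group 3. It was 8.04, 7.72, 8.00, 8.22 and 7.93 in group 4, and 8.11, 7.82, 7.96, 8.16 and 7.67 in group 5. Groups 4 and 5 lay wholly above group 2, and in group 3 rat 4 fell among the group 2 rats. The increase was 1.45-fold in group 5 (0.54, SE 0.10, adjusted p = 0.00283), 1.49-fold in group 4 (0.58, SE 0.09, adjusted p = 0.00195) and 1.34-fold in group 3 (0.43, SE 0.11, adjusted p = 0.0475). The group 3 call was lost without rat 5 of group 3 (adjusted p = 0.103) or rat 5 of group 2 (adjusted p = 0.1001). At day 4 no restricted group was called, with log2 changes of -0.05, 0.25 and 0.16 in groups 3, 4 and 5.

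Cebpb, a partner of ATF4 and an activator of glucose-producing genes in liver, rose at day 14 in groups 4 and 5. Its log2 intensity was 10.29, 10.63, 10.87, 10.36 and 11.55 in group 2, and 12.00, 11.45, 10.69, 11.06 and 11.33 in group 3. It was 12.39, 11.93, 11.56, 11.54 and 11.37 in group 4, and 11.93, 11.86, 11.59, 11.31 and 11.88 in group 5. The fifth rat of group 2, at 11.55, overlapped with all restricted groups. Group 5 was 1.96-fold higher (0.97, SE 0.21, adjusted p = 0.00995) and group 4 was 2.03-fold higher (1.02, SE 0.24, adjusted p = 0.0236), and both calls held when any 1 rat was left out. Group 3 (0.56, adjusted p = 0.309) was not called with all rats, and was called without rat 5 of group 2 (0.77, adjusted p = 0.0993). At day 4 group 5 differed by 0.66 (adjusted p = 0.157), and the call appeared without its second rat (0.82, adjusted p = 0.0755).

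**Figure D2:**
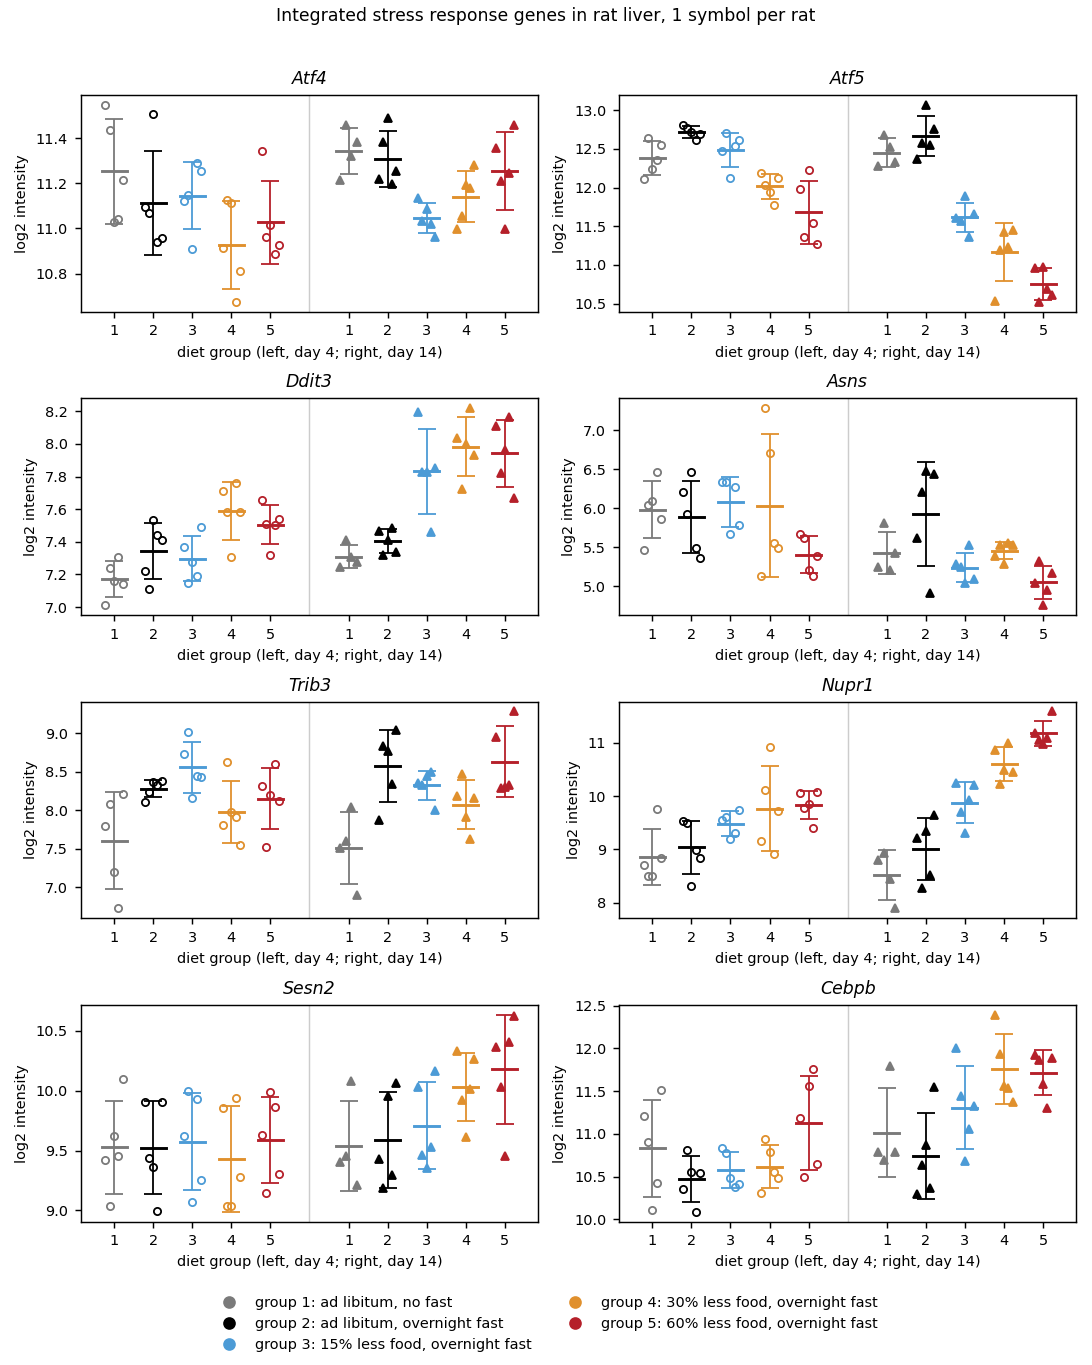
Log2 intensity of each gene in every rat, by diet group 1 to 5 at day 4 (left, open circles) and day 14 (right, filled triangles), with the group mean as a bar and the SD as an error bar (n = 5, or 4 in group 1 at day 14). At day 14 Atf5 steps down to a mean of 10.75 in group 5 and Nupr1 steps up to 11.17, while Atf4 stays between 11.05 and 11.34.

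Nupr1, a small stress-induced chromatin protein, showed the widest range of the 8 genes, with group means that spanned 2.65 on the log2 scale. At day 14 its log2 intensity was 9.22, 8.27, 9.34, 8.53 and 9.65 in group 2, and 10.24, 9.70, 9.31, 9.93 and 10.21 in group 3. It was 10.87, 10.22, 10.48, 11.00 and 10.44 in group 4, and 11.18, 11.04, 10.97, 11.09 and 11.59 in group 5. Groups 4 and 5 lay wholly above group 2, whereas the third rat of group 3 fell within it. The increase was 4.50-fold in group 5 (2.17, SE 0.23, adjusted p = 0.000116), 3.03-fold in group 4 (1.60, SE 0.25, adjusted p = 0.00239) and 1.83-fold in group 3 (0.87, SE 0.26, adjusted p = 0.0893). The calls in groups 4 and 5 held when any 1 rat was left out. The group 3 call was lost without rat 1, 2, 4 or 5 of group 3 or rat 1, 2 or 4 of group 2 (adjusted p of 0.121 to 0.201).

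At day 4, Nupr1 was 10.05, 9.77, 9.86, 9.41 and 10.07 in group 5, against 9.54, 9.49, 8.32, 8.99 and 8.84 in group 2. The ranges overlapped, and group 5 was 1.73-fold higher (0.79, SE 0.22, adjusted p = 0.0673). That call was lost without rat 1, 2, 3 or 5 of group 5 or rat 4 or 5 of group 2 (adjusted p of 0.114 to 0.146). Group 4 held 1 high rat at 10.92 beside 9.15, 10.12, 8.91 and 9.72, and was not called (0.73, 95% interval -0.04 to 1.50, adjusted p = 0.336).

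**Figure D3:**
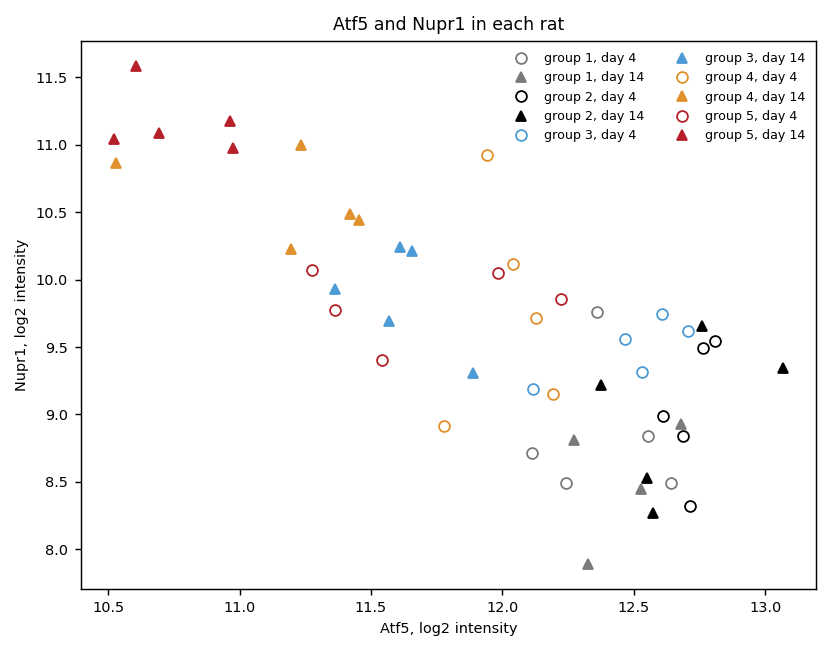
Log2 intensity of Nupr1 (vertical axis) against Atf5 (horizontal axis) in each of the 49 rats, coloured by diet group, with open circles for day 4 and filled triangles for day 14. The 5 rats of group 5 at day 14 sit at the upper left, with Atf5 between 10.52 and 10.97, and the rats of groups 1 and 2 sit at the lower right. No correlation is drawn through these separate groups.

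Asns, which makes asparagine and is a standard readout of amino acid shortage, lay close to the dim floor, with a mean log2 intensity of 5.65 against a floor of 5.307. At day 14 it was 5.04, 5.32, 4.75, 4.95 and 5.17 in group 5, against 5.61, 6.21, 6.48, 4.91 and 6.44 in group 2. Group 5 lay mostly under the dim floor, and rat 4 of group 2 fell within its range. Group 5 was lower (-0.88, SE 0.26, adjusted p = 0.0408), a call that held when any 1 rat was left out. Groups 4 (-0.47, adjusted p = 0.316) and 3 (-0.69, adjusted p = 0.183) were not called, but both were without that rat 4 of group 2 (-0.73, adjusted p = 0.02, and -0.95, adjusted p = 0.0118). At day 4 group 4 split into 7.29 and 6.71 in 2 rats and 5.13, 5.55 and 5.49 in the other 3, which gave the widest spread of any group (SD 0.92).

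Sesn2, a sestrin that senses leucine and restrains the growth kinase complex mTORC1, was not called in any restricted group, although its means followed the diet at day 14. It was 9.43, 9.19, 9.96, 9.29 and 10.07 in group 2, 10.33, 9.92, 9.62, 10.01 and 10.26 in group 4, and 10.37, 10.03, 9.46, 10.41 and 10.63 in group 5. The third rat of group 5, at 9.46, fell among the group 2 rats. The change in group 5 was 0.59 (95% interval 0.10 to 1.08, adjusted p = 0.11), and 4 of 6 other settings called it. It was also called without rat 3 of group 5 (0.77, adjusted p = 0.0204), rat 3 of group 2 (0.68, adjusted p = 0.0902) or rat 5 of group 2 (0.71, adjusted p = 0.0671). Group 4 (0.44, adjusted p = 0.185) was called without rat 5 of group 2 (0.56, adjusted p = 0.0829). The other probe set of Sesn2 gave, at day 14, 0.48 for group 5 (adjusted p = 0.18) and 0.14 for group 4 (adjusted p = 0.724).

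Trib3, a pseudokinase that binds AKT and that ATF4 and CHOP induce, was not called in any restricted group at either day. Its changes ran from -0.50 (group 4, day 14, 95% interval -0.96 to -0.04, adjusted p = 0.191) to 0.28 (group 3, day 4, 95% interval -0.02 to 0.57, adjusted p = 0.513). Group 4 was called lower at day 4 without its second rat (-0.47, adjusted p = 0.0433) and at day 14 without rat 1 of group 2 (-0.67, adjusted p = 0.0447).

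The next question was whether expression had a linear slope over the food restriction of groups 2 to 5. Departure from a line was not tested. At day 14, 4 of the 8 genes rose and 2 fell along the trend, against 10.8% and 13.2% of all genes. Nupr1 rose by 1.06 on the log2 scale per 30 percentage points of food removed (SE 0.12, adjusted p = 8.07e-06) and Atf5 changed by -0.89 (SE 0.11, adjusted p = 1.03e-05). Cebpb rose by 0.46 (adjusted p = 0.0152), Sesn2 by 0.31 (adjusted p = 0.0392) and Ddit3 by 0.24 (adjusted p = 0.0172), and Asns changed by -0.36 (adjusted p = 0.0266). A called slope does not mean a change at each step. In groups 2, 3, 4 and 5 the means were 10.74, 11.31, 11.76 and 11.71 for Cebpb and 7.40, 7.83, 7.98 and 7.94 for Ddit3. For Asns they were 5.93, 5.24, 5.46 and 5.05. The Sesn2 trend was lost without rat 5 of group 5 (0.26, adjusted p = 0.117). The other probe set of Sesn2 was not called for this trend (0.24, adjusted p = 0.118 in limma over all probe sets). Atf4 (0.01, 95% interval -0.09 to 0.10) and Trib3 (0.04, 95% interval -0.20 to 0.29) were not called. At day 4, Cebpb rose (0.33, adjusted p = 0.0425) and Atf5 fell (-0.54, adjusted p = 0.000225), 1 gene each way, against 4.8% and 4.02% of all genes. The Cebpb trend at day 4 was lost without rat 3 (0.27, adjusted p = 0.11) or rat 4 (0.24, adjusted p = 0.134) of group 5. Means of Cebpb at day 4 were 10.47, 10.58, 10.61 and 11.13 in groups 2, 3, 4 and 5. The Nupr1 trend at day 4 (0.37, adjusted p = 0.127) was called without rat 3 of group 4 (adjusted p = 0.0558) or rat 4 of group 5 (adjusted p = 0.0951).

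Expression at day 14 was then set against day 4 within each diet. In group 5, Nupr1 (1.34, SE 0.14, adjusted p = 0.00355) and Ddit3 (0.44, SE 0.10, adjusted p = 0.0362) were higher and Atf5 (-0.93, SE 0.18, adjusted p = 0.0197) was lower at day 14, with day ranges that did not overlap, against 3.9% of all genes higher and 2.81% lower. In group 4, Cebpb (1.15, adjusted p = 0.0125) and Ddit3 (0.39, adjusted p = 0.0725) were higher and Atf5 (-0.85, adjusted p = 0.0212) was lower, against 3.64% and 1.84%. In group 3, Cebpb (0.73, adjusted p = 0.0521) and Ddit3 (0.54, adjusted p = 0.0225) were higher and Atf5 (-0.87, adjusted p = 0.00374) and Asns (-0.84, adjusted p = 0.00922) were lower, against 8.93% and 3.85%. In the ad libitum groups limma called none of the 8 genes. In group 2 none reached an unadjusted p under 0.05, and in group 1 only Asns did (-0.56), while 0.00703% and 0.0% of all genes were called in either direction. Day 4 and day 14 animals differ in age and were necropsied on different days, which cannot be told apart from the length of the diet in these comparisons.

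Several of these calls were lost when 1 rat was left out, and some differences not called with all rats were gained. The Ddit3 difference in group 5 was lost without rat 3 of day 4 (0.39, adjusted p = 0.104). In group 4 it was lost without rat 1, 3 or 4 of day 14 or rat 1, 2, 3 or 5 of day 4 (adjusted p of 0.108 to 0.149). With any 1 rat left out, the Ddit3 change in group 4 lay between 0.32 and 0.46. The Cebpb difference in group 3 was lost without rat 2 of day 14 or rat 4 or 5 of day 4 (adjusted p of 0.1003 to 0.115). Nupr1 in group 4 (0.84, adjusted p = 0.201) was called without rat 3 of day 4 (1.13, adjusted p = 0.0341), the rat at 10.92. In group 5, Sesn2 was called without rat 3 of day 14 (0.77, adjusted p = 0.0343), and Asns (-0.42, adjusted p = 0.094) and Cebpb (0.74, adjusted p = 0.0815) without rat 4 of day 4. Sesn2 in group 4 was called without rat 4 of day 4 (0.73, adjusted p = 0.0882), and Nupr1 in group 3 without rat 3 of day 14 (0.53, adjusted p = 0.0468).

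The change of the diet effect between the days was tested directly as an interaction, the day 14 difference from group 2 minus the day 4 difference. For group 5, Atf5 (-0.87, SE 0.22, adjusted p = 0.0717) and Nupr1 (1.38, SE 0.35, adjusted p = 0.0717) were called, 2 of 8 genes against 2.04% of all. For group 3, Atf5 was called (-0.82, SE 0.17, adjusted p = 0.0419), 1 of 8 against 0.591% of all. For group 4, limma called none of the 8 (3 at an unadjusted p under 0.05) and 0.134% of all genes, and Atf5 had a difference of -0.80 (95% interval -1.22 to -0.37, adjusted p = 0.151). The Atf5 interaction of group 3 held without any 1 rat. The Atf5 interaction of group 5 was lost without any 1 of 9 rats (rat 2 or 5 of group 5 and rat 3 or 5 of group 2 at day 14, rat 1 or 3 of group 5 and rat 2, 4 or 5 of group 2 at day 4, adjusted p of 0.102 to 0.137). The Nupr1 interaction was lost without any 1 of 8 rats (rat 1 or 5 of group 5 and rat 2 or 4 of group 2 at day 14, rat 3 of group 5 and rat 1, 2 or 4 of group 2 at day 4, adjusted p of 0.102 to 0.126). Leaving out rat 5 of group 4 at day 14 called Atf5 for group 4 (-0.87, adjusted p = 0.0818), and leaving out rat 4 of group 3 at day 14 called Ddit3 for group 3 (0.57, adjusted p = 0.0805).

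The comparison of group 2 with group 1 gave the effect of the overnight fast in rats fed ad libitum. Trib3 rose at both days, and it was the only 1 of the 8 genes called at day 14. Its log2 intensity at day 14 was 7.87, 8.84, 8.77, 8.34 and 9.04 in group 2, against 7.52, 7.61, 8.04 and 6.91 in group 1. A single group 2 rat, at 7.87, fell below the highest group 1 rat. The rise was 2.08-fold (1.06, SE 0.26, adjusted p = 0.0295), held when any 1 rat was left out, and 1 gene higher with none lower stood against 5.92% and 7.26% of all genes. Over all probe sets, the 3 probe sets of Trib3 gave 1.06, 1.36 and 1.16 (adjusted p of 0.0286, 0.0232 and 0.0265). Of the 3, 2 carry a suffix that marks probes shared by several transcripts, and the third does not.

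At day 4, Trib3 was 8.10, 8.23, 8.37, 8.32 and 8.38 in group 2, against 7.80, 8.09, 7.20, 6.73 and 8.21 in group 1. The fed rats were far more spread (SD 0.63) than the fasted ones (SD 0.11). The rise was 1.60-fold (0.68, SE 0.24, adjusted p = 0.0841). It was lost after a further quantile normalization (adjusted p = 0.109), and without any of the 5 rats of group 2 or rat 1, 3 or 4 of group 1 (adjusted p of 0.102 to 0.171). Over all probe sets, those of Trib3 gave 0.68, 0.46 and 0.70 in the order used for day 14 (adjusted p of 0.0866, 0.112 and 0.0264). The last is the one without the suffix. Atf5 was also higher in group 2, at 12.81, 12.77, 12.71, 12.61 and 12.69, against 12.11, 12.64, 12.24, 12.36 and 12.55 in group 1 (0.34, SE 0.10, adjusted p = 0.0356), and was not called in a fit of all groups together (adjusted p = 0.134). These 2 genes higher and none lower stood against 11.5% and 9.76% of all genes. Ddit3 was called at day 4 without rat 2 of group 2 (0.23, adjusted p = 0.0928), and Asns at day 14 without rat 4 of group 2 (0.76, adjusted p = 0.0497). For the interaction of the fast with day, limma called none of the 8 genes (none at an unadjusted p under 0.05) and 0.0% of all genes.

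Whether rats of the same group that were high in 1 gene were also high in another was tested over the 28 pairs of genes, after the mean of each group and day was removed (49 rats, permutation within group and day). Trib3 and Cebpb were the most closely related pair (Pearson's r = 0.63, Spearman's rho = 0.63, permutation p = 4e-05, adjusted p = 0.00112). Its r was 0.74 at day 4 alone (adjusted p = 0.0084) and 0.52 at day 14 alone, where the pair was not called (adjusted p = 0.146). Without the 2 rats farthest from the Trib3 median r was 0.61 (adjusted p = 0.00168). Sesn2 and Cebpb also varied together (r = 0.45, rho = 0.41, permutation p = 0.00234, adjusted p = 0.0328), with r = 0.30 at day 4 (not called, adjusted p = 0.453), r = 0.60 at day 14 (adjusted p = 0.0595) and r = 0.42 without the 2 farthest rats (adjusted p = 0.0865). Atf4 varied with Asns (r = 0.44, rho = 0.45, permutation p = 0.00781, adjusted p = 0.0729), with Trib3 (r = 0.40, rho = 0.40, permutation p = 0.0165, adjusted p = 0.0926) and with Atf5 (r = 0.35, rho = 0.42, permutation p = 0.0164, adjusted p = 0.0926). For these 3 pairs r lay between 0.34 and 0.49 within each day. None of them was called at either day alone (adjusted p of 0.146 to 0.386) or without the 2 farthest rats (adjusted p of 0.129 to 0.13). Nupr1 and Asns had r = 0.47 (rho = 0.43, permutation p = 0.0268, adjusted p = 0.125). Nupr1 and Sesn2 were called at day 14 alone (r = 0.63, rho = 0.71, adjusted p = 0.0595), but not at day 4 (r = -0.26, adjusted p = 0.566) or over both days (r = 0.12, adjusted p = 0.718). Atf5 and Nupr1, which moved in opposite directions with diet, had r = 0.05 within groups.

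**Figure D4:**
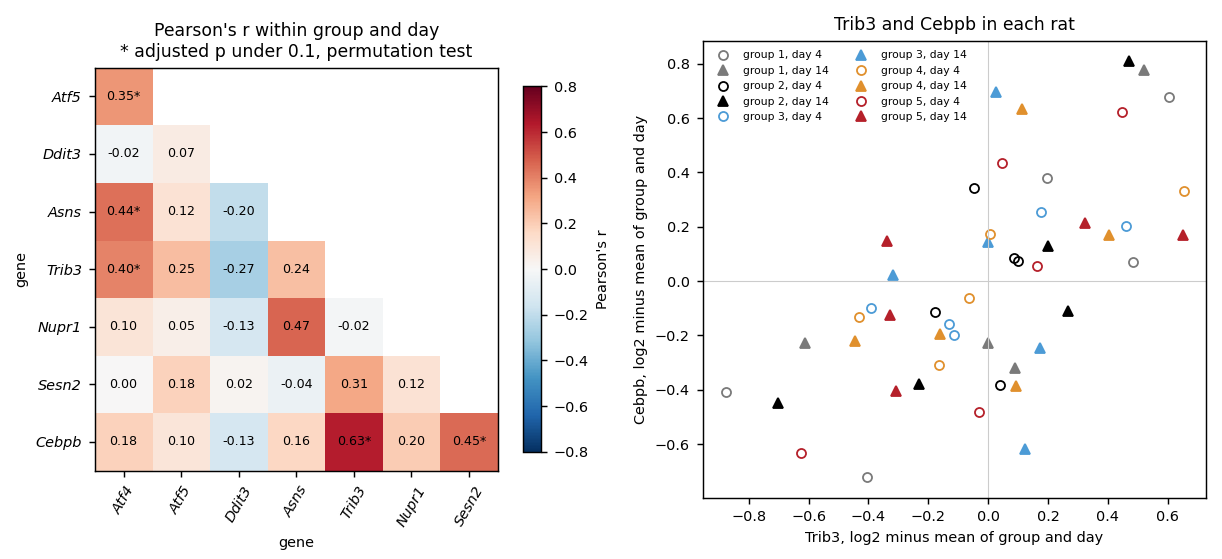
Left, Pearson's r between each pair of genes over 49 rats after the mean of each group and day was removed, with an asterisk for an adjusted p under 0.1. Right, Cebpb against Trib3 in each rat as log2 deviation from the mean of its group and day (r = 0.63), by diet group and by day (open circles, day 4, and filled triangles, day 14).

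The genes upstream of and around the 8 were then examined with 60% less food at day 14, where the share of all genes called was 8.88% higher and 10.9% lower. None of the 4 eIF2 kinases rose, and Eif2ak4, the kinase GCN2 that senses uncharged tRNA, fell (-0.41, adjusted p = 0.016). In group 4 at day 14, by contrast, 1 of the 4 kinases was higher and none lower, against 6.52% and 6.24% of all genes. The overnight fast at day 14 gave the same count, against 5.92% and 7.26%. With 60% less food at day 14, 1 of 14 subunits and regulators of eIF2 rose, Ppp1r15a (0.50, adjusted p = 0.067), which directs the phosphatase to eIF2. Gcn1 (-0.43, adjusted p = 0.0041), which activates GCN2, was the only 1 of them that fell. Of 17 partner transcription factors, Atf6 (0.34, adjusted p = 0.043) and Cebpg (0.27, adjusted p = 0.048) rose and Nfe2l2 (-0.54, adjusted p = 0.01) fell. Among relatives of the responsive genes, Sesn1 (1.18, adjusted p = 0.027), Trib1 (0.59, adjusted p = 0.016) and Trib2 (0.29, adjusted p = 0.021) rose, 3 of 4 genes, and Sesn3 had a change of -0.04.

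The targets of ATF4 split by gene. Of 13 measured genes of amino acid and one-carbon synthesis, 3 rose and 4 fell, with a median change of -0.03 against 0.0033 for all genes. The transaminases Got1 (1.25, adjusted p = 0.0039) and Gpt2 (0.88, adjusted p = 0.0059) were among the higher genes, and Aldh1l2 (-0.98, adjusted p = 0.0063), a mitochondrial folate enzyme, and Cth (-0.57, adjusted p = 0.013), which makes cysteine, were among the lower. Of 12 amino acid transporters, Slc38a2 rose (1.86, adjusted p = 0.003) and Slc1a4 fell (-1.90, adjusted p = 0.00019). Of 15 aminoacyl-tRNA synthetases, none rose and 3 fell, Cars1 (-0.66, adjusted p = 0.003), Aars1 (-0.45, adjusted p = 0.0024) and Gars1 (-0.27, adjusted p = 0.02). Of 18 other ATF4 and CHOP targets, 5 rose and 3 fell. Ddit4, an inhibitor of mTORC1 (1.65, adjusted p = 0.031), and Igfbp1, a secreted binding protein (1.45, adjusted p = 0.0064), rose, and Fgf21, a fasting hormone of the liver, fell (-1.58, adjusted p = 0.0077).

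**Figure D5:**
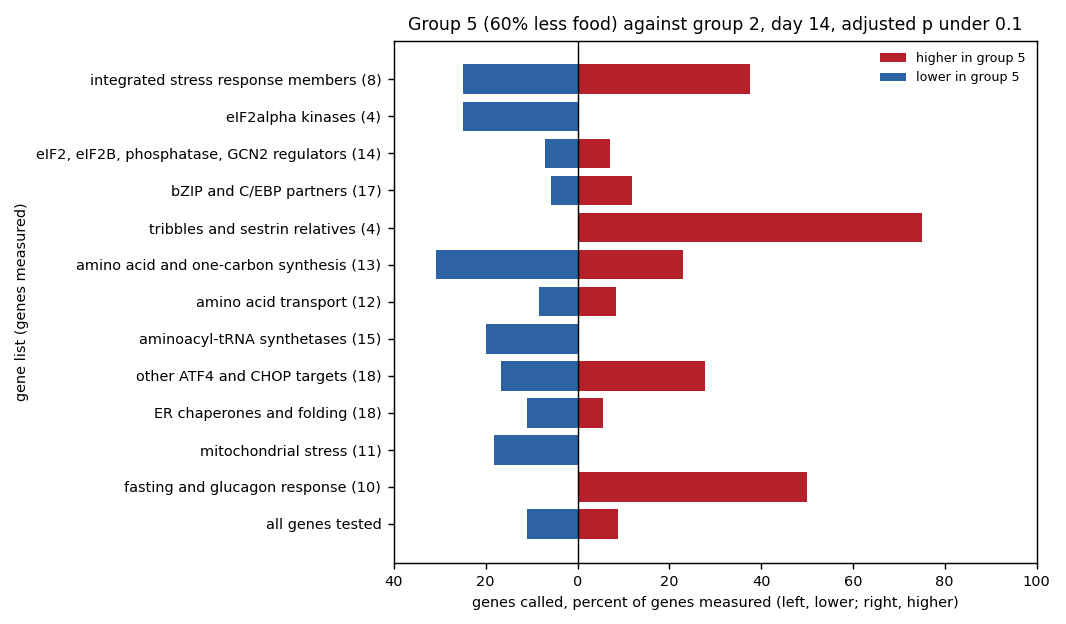
Share of the measured genes of each list that were called higher (right, red) or lower (left, blue) in group 5 against group 2 at day 14, in percent, with the number of genes measured in brackets and all genes tested in the bottom row. The 8 genes of the integrated stress response hold 3 higher and 2 lower calls, and the eIF2 kinases, aminoacyl-tRNA synthetases and mitochondrial stress genes hold lower calls alone.

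The arms of the response for the endoplasmic reticulum and the mitochondrion were set beside these. Of 18 chaperone and folding genes of the endoplasmic reticulum, 1 rose and 2 fell in group 5 at day 14, with Edem1 at 0.79 (adjusted p = 0.098) and Creld2 at -0.50 (adjusted p = 0.015). Other comparisons of the same 18 genes differed: 5 were higher and none lower in group 4 at day 14, against 6.52% and 6.24% of all genes, and 3 were higher and none lower in group 5 at day 4, against 3.56% and 3.58%. Between the days in group 5, 10 were lower and none higher at day 14, against 2.81% and 3.9% of all genes. Of 11 mitochondrial stress genes, none rose and 2 fell, Clpx, a mitochondrial unfoldase (-1.58, adjusted p = 1.5e-06), and Dele1, which relays mitochondrial stress to eIF2 (-0.48, adjusted p = 0.00069). With the overnight fast, 10 of the 18 chaperone genes fell and 1 rose at day 14, against 7.26% and 5.92% of all genes, and 8 fell and none rose at day 4, against 9.76% and 11.5%. Sdf2l1 (-0.94 at day 14 and -0.95 at day 4), Hyou1 (-0.69 and -0.73) and Calr (-0.67 and -0.63) fell at both days.

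Over the 49 rats, the genes whose levels followed each of the 8 most closely were listed as a description, since all points share the same diet groups. Atf5 was followed most closely by Kynu, an enzyme of tryptophan breakdown (r = 0.94), then Dcaf11 and Ldha (both r = 0.93), and Ddit3 by Ndel1 (r = 0.87), Ddi2 and Yaf2 (both r = 0.85). Nupr1 was followed by Slc25a33, Polr1c (both r = 0.85) and Tent4a (r = 0.84), and Cebpb by Tsc22d3, a glucocorticoid-induced gene (r = 0.82), Ppp1r15b, an eIF2 phosphatase subunit (r = 0.81), and Csnk1d (r = 0.80). Sesn2 was followed by Snrpd1 (r = 0.76), Irf2bp2 (r = 0.73) and Nfkbia (r = 0.72). The likeness was weaker for Atf4, with Jund (r = 0.69), Adnp2 (r = 0.64) and Rbm15 (r = 0.62), for Trib3, with Tomm20, Apoa5 (r = 0.66 each) and LOC100912041 (r = 0.65), and for Asns, with Cars1, Plekha1 (both r = 0.64) and Spcs1 (r = 0.57).

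In the order of the 10 group means, neighbouring groups overlapped in range in all 9 steps for each of the 8 genes. Atf5 ran from group 5 at day 14 (10.75 ± 0.21, SD, n = 5) up to group 2 at day 4 (12.72 ± 0.08, n = 5). Nupr1 ran from group 1 at day 14 (8.52 ± 0.46, SD, n = 4) up to group 5 at day 14 (11.17 ± 0.24, n = 5). Ddit3 ran from group 1 at day 4 (7.17 ± 0.11) up to group 4 at day 14 (7.98 ± 0.18), and Cebpb from group 2 at day 4 (10.47 ± 0.27) up to group 4 at day 14 (11.76 ± 0.41). Trib3 was lowest in the unfasted rats at both days (7.52 ± 0.47 at day 14 and 7.61 ± 0.63 at day 4) and highest in group 5 at day 14 (8.63 ± 0.46).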

How the data were processed

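Liver RNA of 49 rats was hybridised to Affymetrix GeneChip rat genome arrays. Per the labels and the study's methods, the authors processed scans with Expression Console and normalized them by RMA in affy 1.38.1 (R 3.0.1). The deposited intensities are on a linear scale in whole numbers for 31042 probe sets, and log2 was taken here. Of the probe sets, 20826 carried 1 gene symbol, 436 several and 9780 none, which gave 14217 genes, and 4525 of them had more than 1 probe set. RMA shrinks differences of dim probe sets, and no depth applies to arrays, whose number limits the precision.

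Each comparison was fitted separately in limma 3.58.1 (R 4.3.3, lmFit and eBayes), with Benjamini-Hochberg adjustment over all 14217 genes and calls at an adjusted p under 0.1, the false discovery rate of the methods. The methods' own model (EBarrays) was not run. Correlations were tested by 100000 permutations within group and day (2-sided). The code was tested on simulated data. Alternatives were a fit of all groups together, leaving out dim probe sets, averaging all probe sets of a gene, all probe sets tested, a further quantile normalization, array weights and leaving out each rat. Each rat has its own identifier. Rats shared cages in groups or pairs, and which ones is not given in the sources used here.

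All 8 genes were named. Of the other lists, the called genes with the largest change were named, with relatives of the 8 named whatever their values, and the 3 genes most correlated with each. The genes and lists were chosen with earlier results of these data known.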

Additional observations from a re-analysis of the deposited data

Results flagged for a closer look

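Over 80 sets of 1 gene in 1 group and day, 5 held a rat whose gap to the nearest other rat, divided by the range of the group, was above Dixon's 95% critical value, and chance flags about 1 set in 20. Atf4 was 11.51 in rat 3 of group 2 at day 4 (next 11.09) and 11.34 in rat 1 of group 5 at day 4 (next 11.02). Atf5 was 10.53 in rat 1 of group 4 at day 14 (next 11.19), the lowest of its group. Nupr1 was 9.76 in rat 4 of group 1 at day 4 (next 8.84), and Cebpb was 11.79 in rat 3 of group 1 at day 14 (next 10.79).

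A change of the difference from group 2 between the days was called in 3 cases. For Atf5 the day 14 difference minus the day 4 difference was -0.87 in group 5 and -0.82 in group 3, and for Nupr1 it was 1.38 in group 5. Their adjusted p-values and their dependence on single rats stand in the report.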

How the results depend on the processing

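Over 912 values of single genes under the other settings, 895 kept their direction and their side of the threshold, 3 lost a call, 8 gained one and 6 changed sign. Over 1976 values with 1 rat left out, 1802 kept both, 59 lost a call, 22 gained one and 93 changed sign. None of the values that changed sign was called with all rats, and the log2 changes concerned were at most 0.18 in size. The number of the 8 genes called in group 2 against group 1 at day 4 was 2, and 1 in a fit of all groups together or after a further quantile normalization. Against 5 pairs of genes called within groups, 1 pair was called at day 4 alone (Trib3 and Cebpb), 2 at day 14 alone (Sesn2 with Cebpb, and Sesn2 with Nupr1, which was not among the 5) and 2 without the 2 farthest samples (Cebpb with Trib3 and with Sesn2).

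With 1 rat left out, the number of genes called at day 4 lay between 1 and 2 with 60% or 30% less food, and was 0 with 15% less. At day 14 it lay between 5 and 6 with 60% less food, 4 and 5 with 30% less and 1 and 4 with 15% less. For the overnight fast it lay between 1 and 2 at either day. Between the days it lay between 2 and 5 in group 5, 2 and 4 in group 4 and 3 and 5 in group 3. For the interactions it lay between 0 and 2 in group 5, 0 and 1 in group 4 and 1 and 2 in group 3, and for the trends between 1 and 3 at day 4 and 5 and 6 at day 14. The cause of these changes was not tested.

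Under other settings the sign changed for Sesn2 alone, in group 2 against group 1 at day 14 (-0.059 with the mean of its probe sets and -0.052 with array weights), between the days in group 3 (-0.0094 with the mean) and group 1 (-0.043 after a further quantile normalization), and in the interactions of group 3 (-0.11) and of the fast (-0.039) with day, both with the mean. With 1 rat left out, these log2 changes crossed 0. Atf4 ranged over -0.17 to 0.013 in group 5 against group 2 at day 4, -0.11 to 0.0089 in group 5 against group 2 at day 14, -0.011 to 0.13 in group 3 against group 2 at day 4, -0.081 to 0.0023 in group 2 against group 1 at day 14, -0.068 to 0.11 in the interaction of group 5 and group 2 with day, -0.082 to 0.066 in the interaction of group 4 and group 2 with day and -0.026 to 0.035 in the trend at day 14. Atf5 ranged over -0.15 to 0.021 in day 14 against day 4 in group 2 and -0.0072 to 0.13 in day 14 against day 4 in group 1. Cebpb ranged over -0.077 to 0.35 in day 14 against day 4 in group 1 and -0.12 to 0.35 in the interaction of group 2 and group 1 with day. Nupr1 ranged over -0.21 to 0.15 in day 14 against day 4 in group 2. Trib3 ranged over -0.24 to 0.025 in group 5 against group 2 at day 4, -0.12 to 0.18 in group 5 against group 2 at day 14, -0.011 to 0.26 in day 14 against day 4 in group 4, -0.31 to 0.12 in day 14 against day 4 in group 1 and -0.058 to 0.11 in the trend at day 14. Asns ranged over -0.17 to 0.37 in group 4 against group 2 at day 4, -0.23 to 0.041 in group 2 against group 1 at day 4 and -0.096 to 0.30 in day 14 against day 4 in group 2. Sesn2 ranged over -0.069 to 0.17 in group 5 against group 2 at day 4, -0.23 to 0.0046 in group 4 against group 2 at day 4, -0.080 to 0.18 in group 3 against group 2 at day 4, -0.13 to 0.14 in group 2 against group 1 at day 4, -0.071 to 0.23 in group 2 against group 1 at day 14, -0.066 to 0.17 in day 14 against day 4 in group 2, -0.17 to 0.16 in day 14 against day 4 in group 1, -0.059 to 0.20 in the interaction of group 3 and group 2 with day, -0.091 to 0.23 in the interaction of group 2 and group 1 with day and -0.036 to 0.068 in the trend at day 4.

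No paired analysis was possible because each rat was sampled once and the labels tie no rat of a group to a rat of another. Asns lies near the dim floor, where array signal limits the size of a measured change.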

Other observations

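Genes of the fasting and glucagon response gave another view of the same livers. In group 5 at day 14, 5 of 10 measured genes were higher than in group 2 and none was lower, against 8.88% of all genes higher and 10.9% lower, with Ppargc1a, a coactivator of glucose production, at 1.83 (adjusted p = 0.0021), Gadd45b at 1.36 (adjusted p = 0.0041), Tat, which breaks down tyrosine, at 1.24 (adjusted p = 0.0041) and Sik1 at 1.21 (adjusted p = 0.011). At day 4 the same list held 2 higher and 3 lower genes in group 5, against 3.56% and 3.58% of all genes, with Pdk4, a brake on pyruvate dehydrogenase, at -1.63 (adjusted p = 0.0066) and Angptl4 at -1.22 (adjusted p = 0.011).

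With the overnight fast, 4 of the 10 genes were higher in group 2 than in group 1 at day 4 and 3 at day 14, and none was lower at either day. The shares of all genes called higher and lower were 11.5% and 9.76% at day 4 and 5.92% and 7.26% at day 14. Cpt1a, which carries fatty acids into mitochondria, was at 1.83 (adjusted p = 1.2e-05) at day 4 and 1.34 (adjusted p = 0.00074) at day 14. Igfbp1 was at 2.45 and 2.11 at these days. Of the 13 measured ATF4 targets of amino acid and one-carbon synthesis, 8 were lower and 1 higher at day 4, and 3 were lower and 1 higher at day 14. Among them Psat1, a serine synthesis enzyme, was at -1.30 (adjusted p = 0.00015) and -0.89 (adjusted p = 0.029).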
